A study of Mus musculus with 6 samples.

Results

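The DNA replication and S-phase genes of mouse lung epithelial cells were examined, a set of 42 genes out of the 54532 genes in the deposited count table. Members were taken from a list of gene symbols that uses no measured value, although it was chosen with earlier results of these data known. Each of the 42 symbols matched 1 gene of the table. All 42 genes had enough counts to be tested in both main comparisons, and the lowest count of any of them in any sample was 184, for *Ccne1*. The set holds 10 origin licensing genes, 6 helicase activation genes, 6 genes of the sliding clamp and its loader, and 6 polymerase and primase genes. The remaining members are 2 genes for joining Okazaki fragments, 4 for nucleotide supply, 4 of the cyclin E and E2F group and 4 for chromatin and histone supply.

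Replication starts at origins that the origin recognition complex, Cdc6 and Cdt1 load with the ring-shaped MCM helicase during G1, and it begins in S phase when Cdc45 and the GINS complex join that helicase. Primase and the replicative polymerases then copy the strands, held to DNA by the ring-shaped clamp PCNA, which the RFC complex opens and closes around the template. Many of these genes are transcribed at the G1/S border by E2F factors, which proteins of the retinoblastoma family hold in check. Most alveolar type 2 cells of a resting adult lung do not divide, whereas cultured lines such as the one used here replicate continuously.

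Lentivirus was given in both groups to MLE12, an immortalized mouse lung alveolar epithelial line whose strain label is C57BL/6J. The Ctrl shRNA group (3 samples, Ctrl_sh in the labels) received a negative control lentivirus at a multiplicity of infection (MOI, infectious particles per cell) of 50. The authors call this virus both an empty vector and shCtrl. The knockdown group (3 samples, SI_sh) received Idh3α shRNA and Slc25a1 shRNA lentiviruses together, each at an MOI of 50. By these stated doses the total virus dose differed between the groups, and no matching of the total is described. *Idh3a* encodes a subunit of the mitochondrial NAD-dependent isocitrate dehydrogenase and *Slc25a1* the mitochondrial citrate carrier. Virus was washed off both groups at 16 h, and culture went on for a further 80 h in a hormone-supplemented low-serum medium (HITES) before total RNA was extracted. The line is known to derive from mice that express the large T antigen of simian virus in the lung epithelium, and this antigen binds proteins of the retinoblastoma family, a background that both groups share. No label says whether the samples of a group came from separate cultures, and p-values therefore measure only the spread between these samples.

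The total count ranged from 27273502 to 28535653 per sample. *Idh3a* read 79.8, 137 and 93.0 CPM (counts per 1e+06 of a library after TMM scaling) in Ctrl shRNA replicates 1, 2 and 3, and 58.5, 57.9 and 55.5 CPM in the knockdown replicates. *Slc25a1* measured 103, 98.7 and 108 CPM across the controls and 68.9, 69.6 and 63.0 CPM across the knockdown samples, so both targeted mRNAs were lower in every knockdown sample. Their log2 fold changes were -0.85 and -0.62 with all samples (adjusted p = 0.254 and 0.104) and -0.60 and -0.66 without Ctrl shRNA replicate 2 (adjusted p = 0.0142 and 0.00649, edgeR with Benjamini-Hochberg adjustment), and over the other settings the adjusted p of *Idh3a* ran from 2.06e-07 to 0.675 and that of *Slc25a1* from 5.76e-11 to 0.660. Ctrl shRNA replicate 2 stood apart from the other libraries. It had 16681 detected genes against 19902 to 23147 in the others, 6.49% of its counts on mitochondrially encoded genes against 1.57% to 1.80%, and a TMM factor of 0.711 against 1.05 to 1.09. The main results below are therefore given with all 6 samples and without this library. The biological coefficient of variation estimated by edgeR was 0.263 with all samples and 0.102 without it. Of 11 alveolar type 2 markers, *Nkx2-1* ranged from 277 to 343 CPM, *Abca3* from 110 to 141 CPM and *Sftpc* from 27.2 to 97.3 CPM, each over all samples, whereas *Sftpa1*, *Sftpd*, *Slc34a2*, *Lamp3* and *Lyz2* were at or near 0. The summed level of these markers was 547 to 559 CPM in the controls and 480 to 512 CPM after knockdown. Without Ctrl shRNA replicate 2, edgeR called *Sftpc* lower (log2 fold change -0.65, adjusted p = 0.0438, from 0.000165 to 0.675 over the settings) and *Etv5* higher (0.57, adjusted p = 0.0312, from 0.000106 to 0.675), so that the markers did not move in 1 direction. *Nkx2-1* was called lower only by DESeq2 without that library and with quality weights. Of 6 general epithelial markers, *Krt8* and *Cdh1* were present and *Krt18* was near 0. The leukocyte markers summed to 1.74 to 2.41 CPM in the controls and 2.44 to 2.92 CPM after knockdown, with *Ptprc* and *Itgam* at 0. Among fibroblast markers *Dcn* stood at 297 to 354 CPM in 5 libraries and at 1211 CPM in Ctrl shRNA replicate 2, with *Col1a2*, *Pdgfrb* and *Lum* near 0. The endothelial marker *Tek* ranged from 31.5 to 45.8 CPM, with *Pecam1*, *Cdh5* and *Kdr* near 0. The 4 endothelial markers summed to 36.7 to 45.8 CPM in the controls and 31.9 to 33.3 CPM after knockdown, the 6 fibroblast markers to 346 to 1234 CPM and 317 to 345 CPM, and the 6 epithelial markers to 314 to 384 CPM and 352 to 374 CPM. The part of these markers in the results was not tested.

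The upstream sequence of replication genes is shown first, because it was not used to choose the set. RefSeq promoter windows of the assembly GRCm38.p6, running from 250 bases before the transcript start to 50 bases after it, were found for 34 of the 42 members. No window was found for *Mcm4*, *Gins1*, *Gins2*, *Gins4*, *Rfc2*, *Prim2*, *Pole* and *Ccne2*. The E2F core was searched on both strands as TTCCCGC, as TTCGCGC, as TTGCCGC and as TTGGCGC, and matches on opposite strands that overlap were counted separately. A core lay in the windows of 20 of the 34 members (58.8%), against 11.4% of 20482 promoters and 17.4% of the 10448 promoters whose genes were tested here. In the 250 bases before the start alone, 14 of the 34 members held a core (41.2%), against 9.40% of all promoters and 14.4% of those of tested genes. At least 2 cores were found in 29.4% of the members' windows, in 1.49% of all windows and in 2.42% of those of tested genes. A CCAAT box, searched as CCAAT on both strands, lay in 61.8% of the members' windows, in 38.2% of all windows and in 38.9% of those of tested genes. The CHR element of G2/M genes, searched as TTTGAA and as TTCGAA on both strands, lay in 17.6% of the members' windows. It lay in 18.4% of all windows and in 13.5% of those of tested genes. Of the 3 motifs, the shares thus lay farthest apart for the E2F core and closest for the CHR element.

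Upstream stretches of 6 members are printed, each the 120 bases before the transcript start, 5′ to 3′ on the strand of the gene, with every complete E2F core in capitals. The genes were chosen because *Mcm6*, *Rfc3* and *Prim1* hold a core and had control and knockdown values that did not overlap, *Chaf1a* holds cores and had overlapping values, and *Pcna* and *Slbp* hold no core in the window and had values that did not overlap.
Mcm6 (chr1:128359706-128359825, minus strand): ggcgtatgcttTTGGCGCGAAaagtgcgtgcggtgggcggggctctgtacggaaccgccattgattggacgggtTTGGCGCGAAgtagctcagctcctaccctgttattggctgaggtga
Rfc3 (chr5:151651209-151651328, minus strand): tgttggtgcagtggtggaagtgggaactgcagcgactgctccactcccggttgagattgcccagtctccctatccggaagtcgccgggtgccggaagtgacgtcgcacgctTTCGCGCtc
Prim1 (chr10:128015095-128015214, plus strand): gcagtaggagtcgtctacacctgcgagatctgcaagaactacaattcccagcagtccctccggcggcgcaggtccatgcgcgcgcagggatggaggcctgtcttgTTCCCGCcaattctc
Chaf1a (chr17:56040296-56040415, plus strand): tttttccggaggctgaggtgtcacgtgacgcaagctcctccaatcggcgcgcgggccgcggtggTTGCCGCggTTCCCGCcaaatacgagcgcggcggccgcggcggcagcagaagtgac
Pcna (chr2:132253181-132253300, minus strand): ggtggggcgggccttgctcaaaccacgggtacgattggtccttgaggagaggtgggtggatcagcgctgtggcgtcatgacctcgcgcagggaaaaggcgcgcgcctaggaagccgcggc
Slbp (chr5:33652575-33652694, minus strand): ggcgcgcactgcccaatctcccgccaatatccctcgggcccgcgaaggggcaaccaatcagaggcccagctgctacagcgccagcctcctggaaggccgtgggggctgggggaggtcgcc

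In the *Mcm6* stretch 4 cores form 2 overlapping pairs, 1 core of each pair on either strand. The whole windows, which reach past the start, hold 5 cores for *Mcm6* and 2 for *Rfc3*. A match is a description of these letters, and the binding of E2F factors was not measured. The 20 members with a core in the window had a median log2 fold change of -0.04 with all samples and -0.09 without Ctrl shRNA replicate 2, and the 14 members with a window but no core had -0.19 and -0.12. Knockdown values lay below all controls for 6 of the 20 and 7 of the 14 with all samples, and for 10 and 8 without that library, against 10.7% and 17.3% of all genes. The gap between these medians was thus larger with that library than without it. The difference between members with and without a core was not tested.

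The question of the comparison was whether mRNA levels of replication genes differed between knockdown and Ctrl shRNA cells 80 h after the virus was washed out. With all 6 samples, none of the 42 members passed an adjusted p of 0.05 in either direction with edgeR's quasi-likelihood test and Benjamini-Hochberg adjustment over the 15307 genes tested. In that test 0.0588% of all genes were called higher and 0.00653% lower, so that few genes of any kind were called. The smallest adjusted p of a member was 0.312, for *Gins2*. At an unadjusted p under 0.05, 4 members were lower (*Gins2*, *Rfc2*, *Tk1* and *Gins4*) and 0 were higher, against 6.65% and 7.47% of all genes. Without Ctrl shRNA replicate 2, again 0 members passed in either direction, against 1.11% of 15709 genes called higher and 0.675% called lower, and the smallest adjusted p was 0.105, for *Rfc3* (edgeR, Benjamini-Hochberg). At an unadjusted p under 0.05, 15 members were then lower and 0 were higher, against 10.3% and 9.54% of all genes.

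With all samples the median log2 fold change of the members was -0.15, beside -0.01 over all genes tested, and 28 of 42 members were below 0, against 51.3% of all genes. Scaling by the total count alone turned the members' median to 0.03, with the median of all genes at 0.16, so that relative to all genes the members' median was -0.13 there and -0.14 under TMM scaling. Without Ctrl shRNA replicate 2 the members' median was -0.10, beside -0.02 over all genes, and 35 of 42 members were below 0, against 52.7% of all genes. Every knockdown sample lay below every control for 18 of the 42 members (42.9%) and above every control for none, against 10.7% and 14.7% of all genes. This count rests on TMM scaling. Under scaling by the total count alone, chosen after the data were seen, 8 members were separated as lower and 0 as higher, against 5.51% and 17.4% of all genes, namely *Orc6*, *Gins1*, *Pcna*, *Rfc3*, *Rfc4*, *Prim1*, *Ccne2* and *Slbp*. Without Ctrl shRNA replicate 2, and with TMM scaling, this held for 24 members lower and 0 higher, against 17.3% and 20.3%. The 6 members added were *Mcm5*, *Mcm7*, *Mcm10*, *Rfc1*, *Pole* and *Chaf1b*. Genes of a shared pathway can vary together, and their number is not a number of independent observations. With bulk RNA, fewer cells in S phase and less of these mRNAs per cell cannot be told apart.

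**Figure D1:**
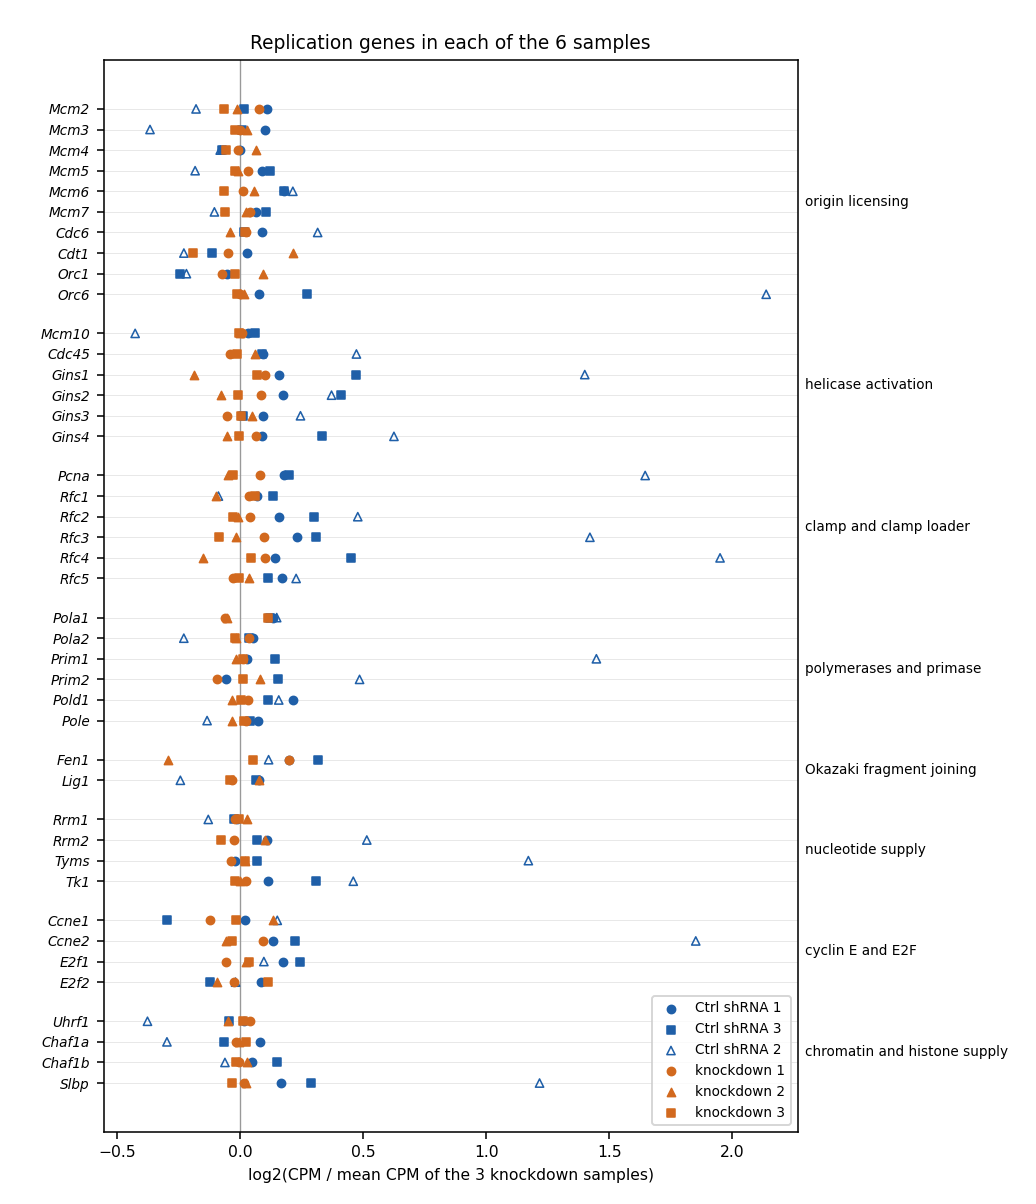
Level of each of the 42 replication genes in each sample, as the log2 ratio of its CPM to the mean CPM of the 3 knockdown samples, grouped by role. Blue filled points are Ctrl shRNA replicates 1 and 3, open triangles Ctrl shRNA replicate 2, and orange points the knockdown replicates. The controls lie to the right of all knockdown points for 18 genes under TMM scaling, against 10.7% of all genes. Scaling by the total count alone leaves 8 such genes, against 5.51% of all genes, and puts the members' median log2 fold change at 0.03. The open triangle lies far to the right for *Orc6*, *Rfc4*, *Ccne2* and *Pcna*.

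Other tests called a few members, all of them lower after knockdown. DESeq2 with all samples called 0 of 42 at the adjusted threshold, against 1.69% of 12772 genes higher and 1.12% lower (Benjamini-Hochberg). At an unadjusted p under 0.05 it had 13 members lower and 0 higher, against 6.09% and 4.37% of 27351 genes. DESeq2 without Ctrl shRNA replicate 2 called 3 members lower and 0 higher, against 2.84% and 4.22% of 11737 genes, namely *Gins2* (adjusted p = 0.0364), *Rfc3* (adjusted p = 0.0370) and *Slbp* (adjusted p = 0.0403, all Benjamini-Hochberg). Limma voom with sample quality weights, which keeps all 6 samples and gives an aberrant library less weight, called 7 lower and 0 higher, against 6.34% and 8.67% of 15307 genes. These were *Mcm6*, *Gins2*, *Gins4*, *Rfc2*, *Tk1*, *E2f1* and *Slbp*, with Benjamini-Hochberg adjusted p from 0.0183 for *Rfc2* to 0.0485 for *Slbp*. Over the 19 alternative settings, 8 of the 42 members passed in at least 1. The share of all genes that did so was not computed, and quality weights alone called 6.34% lower and 8.67% higher. The adjusted p over those settings ran from 0.0186 to 0.805 for *Gins2*, from 0.0370 to 0.675 for *Rfc3* and from 0.0403 to 0.675 for *Slbp*. For a single gene, 3 samples against 3 cannot give a two-sided exact permutation p below 0.1.

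The intervals show how large a difference the data allowed. Without Ctrl shRNA replicate 2 the 95% interval of edgeR's log2 fold change lay within 1 on either side of 0 for all 42 members and within 0.5 for 39 of them. The lowest limit was -0.62, for *Gins1*, and the highest was 0.46, for *Ccne1*. With all samples the interval lay within 1 for 33 members and within 0.5 for 25, and it reached down to -2.49 for *Orc6*. The median standard error of a member's log2 fold change was 0.11 with all samples and 0.07 without that library.

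**Figure D2:**
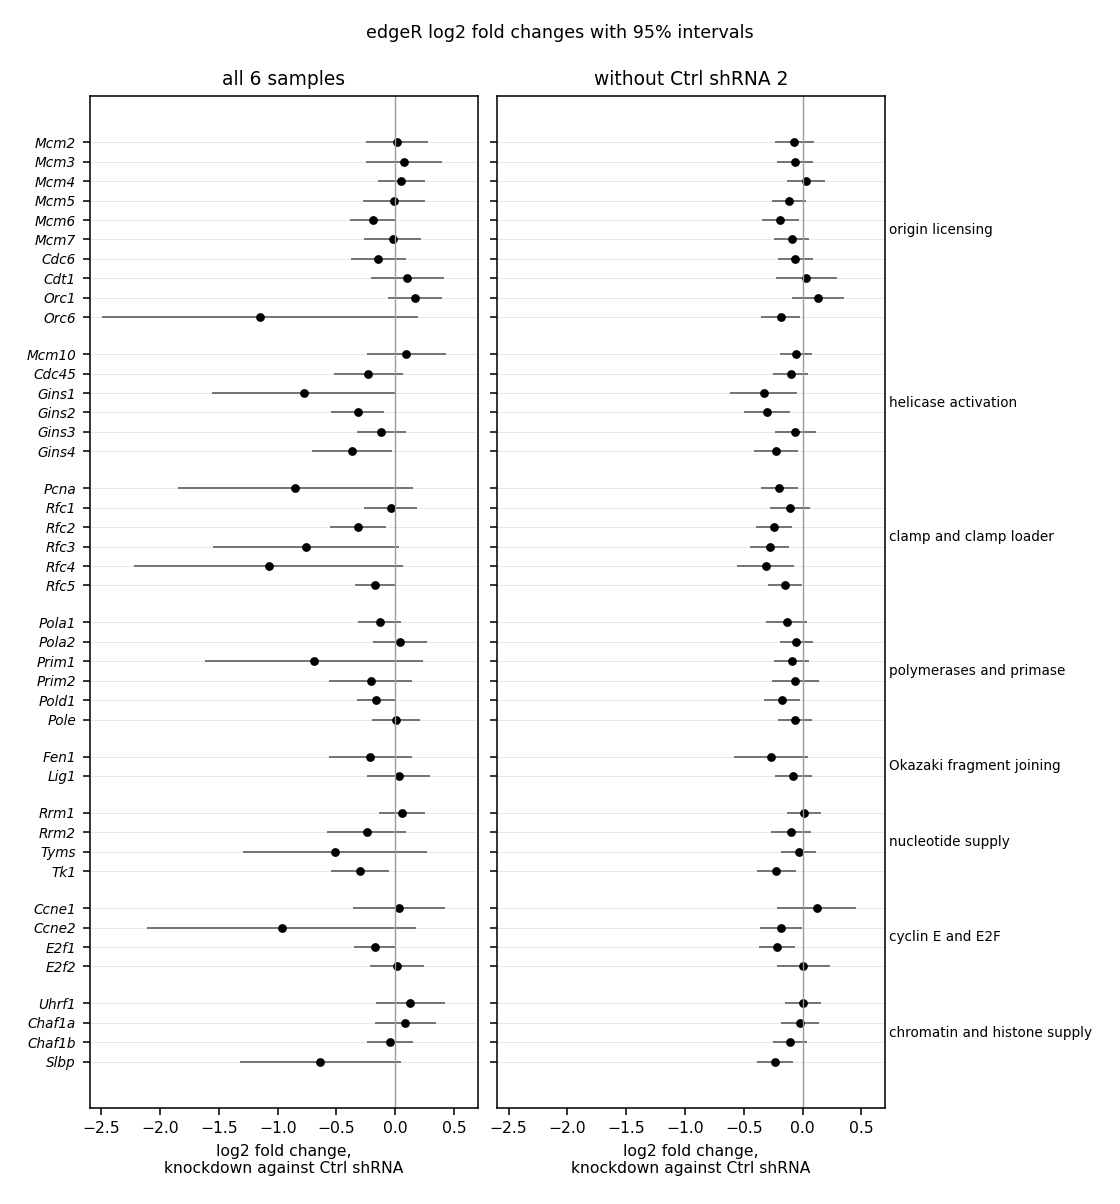
Log2 fold change of each replication gene, knockdown against Ctrl shRNA, from edgeR with TMM scaling, with all 6 samples on the left and without Ctrl shRNA replicate 2 on the right. Points are estimates and bars are 95% intervals. On the right 15 intervals lie below 0 and none above it, against 10.3% and 9.54% of all genes lower and higher at an unadjusted p under 0.05. No gene shown passes an adjusted p of 0.05. On the left the widest bars belong to *Orc6*, *Rfc4* and *Ccne2*.

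Among the origin licensing genes, *Mcm6* and *Orc6* were lower in every knockdown sample, and the other 8 overlapped between groups when all samples were used, so that 2 of 10 were separated against 10.7% of all genes. *Mcm2* to *Mcm7* encode the 6 subunits of the helicase ring. *Mcm6* (ENSMUSG00000026355, chromosome 1, 128331590 to 128359664) had 358, 367 and 358 CPM in control replicates 1 to 3 and 319, 329 and 302 CPM in knockdown replicates 1 to 3. Its controls were tightly grouped, and the lowest of them was above the highest knockdown sample. The mean was 361 ± 5.11 CPM (SD, n = 3) in the controls and 317 ± 13.6 CPM (SD, n = 3) after knockdown, a log2 fold change of -0.19 both with all samples (adjusted p = 0.355) and without Ctrl shRNA replicate 2 (adjusted p = 0.181, edgeR). By the total count alone the groups of *Mcm6* overlapped.

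*Mcm7*, the most abundant licensing mRNA per gene length, had control values of 528, 470 and 543 CPM and knockdown values of 519, 514 and 484 CPM. The groups overlapped, with the lowest value in Ctrl shRNA replicate 2, and the log2 fold change was -0.02 with all samples and -0.09 without that library. The other 4 ring subunits gave -0.07 (*Mcm2*), -0.06 (*Mcm3*), 0.03 (*Mcm4*) and -0.11 (*Mcm5*) without it, and 0.02, 0.07, 0.05 and -0.01 with all samples. Ring subunits therefore did not share 1 direction, and none of the 6 passed in the edgeR test. *Mcm7* overlaps *Cops6* and *Ap4m1* on the opposite strand, whose counts were 23.5% and 6.20% of its own.

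*Orc6*, the smallest subunit of the origin recognition complex (ENSMUSG00000031697, chromosome 8, 85299632 to 85308278), showed the lowest log2 fold change of the set when all samples were used. It gave 104, 434 and 119 CPM in the control replicates, compared with 98.7, 99.8 and 97.7 CPM once both targets were knocked down. The value in Ctrl shRNA replicate 2 was 3.90 times the mean of the other controls, and the remaining difference was small. The log2 fold change was -1.15 (standard error 0.56, adjusted p = 0.372) with all samples and -0.18 (standard error 0.07, adjusted p = 0.212) without that library (edgeR). *Orc6* shares 171 bases with *Vps35* on the opposite strand, a gene with more counts than *Orc6* itself.

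*Orc1*, *Cdt1* and *Uhrf1* had the highest log2 fold changes of the 42 with all samples. Without Ctrl shRNA replicate 2 the highest were *Orc1*, *Ccne1* and *Cdt1*. *Orc1*, the largest subunit of the origin recognition complex, was at 27.6, 24.5 and 24.1 CPM without knockdown and 27.1, 30.5 and 28.2 CPM with it. *Cdt1*, which brings the helicase to origins, measured 173, 145 and 157 CPM across the controls and 164, 197 and 148 CPM across the knockdown samples. In both genes the groups overlapped, and the log2 fold changes were 0.17 and 0.10 with all samples and 0.14 and 0.03 without Ctrl shRNA replicate 2. *Cdc6*, the ATPase that works with the origin recognition complex in loading, gave -0.14 and -0.06.

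The 6 helicase activation genes were all below 0 without Ctrl shRNA replicate 2, with a median log2 fold change of -0.16. Groups did not overlap for 4 of the 6 with all samples, against 10.7% of all genes, namely *Cdc45*, *Gins1*, *Gins2* and *Gins4*. *Gins1* to *Gins4* encode the 4 subunits of GINS, which with Cdc45 turns the loaded ring into an active helicase. *Gins2* (ENSMUSG00000031821, chromosome 8, 120578633 to 120589304) had control values of 116, 133 and 137 CPM and knockdown values of 109, 97.4 and 102 CPM. The mean was 129 ± 11.0 CPM (SD, n = 3) against 103 ± 5.87 CPM (SD, n = 3), and the control libraries 2 and 3 lay close to each other. Its log2 fold change was -0.32 (standard error 0.09, adjusted p = 0.312) with all samples and -0.30 (standard error 0.09, adjusted p = 0.121) without Ctrl shRNA replicate 2 (edgeR). *Gins2* thus had the smallest adjusted p of the set with all samples and 1 of the 3 calls of DESeq2 without that library. *Gins2* shares 2758 bases with *Gse1* on the opposite strand, whose count was 84.7% of that of *Gins2*.

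*Gins4* (chromosome 8, 23226616 to 23237659) gave 103, 149 and 122 CPM in the control replicates, compared with 101, 93.0 and 96.2 CPM once both targets were knocked down. *Gins1* was at 21.8, 51.7 and 27.1 CPM without knockdown and 21.0, 17.2 and 20.6 CPM with it. For both genes Ctrl shRNA replicate 2 was the highest sample and Ctrl shRNA replicate 1 lay just above the knockdown samples. The log2 fold changes were -0.36 and -0.22 for *Gins4*, with all samples and without that library, and -0.77 and -0.33 for *Gins1*. *Gins1* at -0.33 was the lowest of the 42 without that library. *Gins3* overlapped between groups, with -0.12 and -0.06.

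*Cdc45* measured 133, 173 and 132 CPM across the controls and 121, 130 and 123 CPM across the knockdown samples, a narrow gap between the groups once Ctrl shRNA replicate 2 was set aside. Its log2 fold change was -0.23 with all samples and -0.10 without that library. *Mcm10*, which helps to activate the helicase at origins, was lowest in Ctrl shRNA replicate 2 at 82.2 CPM, with the other 5 samples between 110 and 115 CPM. Its log2 fold change therefore changed sign, from 0.10 with all samples to -0.05 without that library.

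In the clamp and its loader, all 6 members were below 0 under TMM scaling with all samples and without Ctrl shRNA replicate 2, with medians of -0.54 and -0.22, and groups did not overlap for 5 of the 6, against 10.7% of all genes. Only *Rfc1* overlapped, and without that library all 6 were separated, against 17.3% of all genes. Scaling by the total count alone put *Rfc5* at 0.01 and *Rfc1* at 0.12, with the median of all genes at 0.16. *Pcna* encodes the sliding clamp (ENSMUSG00000027342, chromosome 2, 132249162 to 132253314) and was the most abundant member per gene length. It had control values of 395, 1094 and 402 CPM and knockdown values of 370, 337 and 342 CPM. Ctrl shRNA replicate 2 was 2.75 times the mean of the other controls, which lay close together above the knockdown samples. The log2 fold change was -0.85 (standard error 0.41, adjusted p = 0.374) with all samples and -0.20 (standard error 0.07, adjusted p = 0.173) without that library (edgeR). Reads on the annotated copy *Pcna-ps2* numbered 377 over all samples, beside 76757 on *Pcna*.

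*Rfc1* encodes the large subunit of the clamp loader and *Rfc2* to *Rfc5* its 4 small subunits. *Rfc3* (ENSMUSG00000033970, chromosome 5, 151642756 to 151651242) gave 104, 239 and 110 CPM in the control replicates, compared with 95.3, 88.0 and 84.0 CPM once both targets were knocked down. Its log2 fold change was -0.76 (adjusted p = 0.357) with all samples and -0.28 (standard error 0.07, adjusted p = 0.105) without Ctrl shRNA replicate 2 (edgeR). *Rfc3* thus had the smallest adjusted p of the set without that library, and all of its knockdown values were under 100 CPM while all of its control values were over it.

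*Rfc2* (ENSMUSG00000023104, chromosome 5, 134581366 to 134601805) was at 140, 174 and 154 CPM without knockdown and 129, 125 and 123 CPM with it. The knockdown samples lay within a few CPM of each other, below all controls. The mean was 156 ± 17.4 CPM (SD, n = 3) against 125 ± 3.15 CPM (SD, n = 3), which gave a log2 fold change of -0.32 (adjusted p = 0.324) with all samples and -0.24 (adjusted p = 0.122) without Ctrl shRNA replicate 2 (edgeR). *Rfc4* measured 82.1, 288 and 102 CPM across the controls and 79.8, 66.9 and 76.7 CPM across the knockdown samples. The log2 fold change of *Rfc4* was -1.08 with Ctrl shRNA replicate 2 and -0.31 without it. *Rfc5* had control values of 160, 166 and 154 CPM and knockdown values of 139, 146 and 142 CPM, with -0.17 and -0.15. *Rfc4* shares 194 bases with *Eif4a2*, and *Rfc5* 499 bases with *Wsb2*, each on the opposite strand and with counts of 366% and 88.8% of the member's own.

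Of the 6 polymerase and primase genes, *Pola1*, *Prim1* and *Pold1* were lower in every knockdown sample, 3 of 6 against 10.7% of all genes. *Pola1* encodes the catalytic subunit of DNA polymerase alpha, which extends the primer, and *Pold1* that of polymerase delta, which copies the lagging strand. *Pold1* (chromosome 7, 44532746 to 44548849) gave 143, 137 and 133 CPM in the control replicates, compared with 125, 120 and 123 CPM once both targets were knocked down. The log2 fold change of *Pold1* was -0.16 with all samples and -0.17 without Ctrl shRNA replicate 2, and no library stood apart. *Pola1* was at 117, 118 and 116 CPM without knockdown and 102, 103 and 115 CPM with it, with -0.13 and -0.14. Both genes turned slightly above 0 under scaling by the total count, to 0.01 and 0.04.

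*Prim1*, the catalytic subunit of primase, measured 99.3, 266 and 108 CPM across the controls and 98.2, 96.3 and 98.4 CPM across the knockdown samples. Its lowest control was less than 1 CPM above its highest knockdown sample, so that the gap rested on Ctrl shRNA replicates 2 and 3. The log2 fold change was -0.69 with all samples and -0.09 without Ctrl shRNA replicate 2. *Pola2*, a regulatory subunit of polymerase alpha and the most abundant of these genes per length without that library, had control values of 139, 114 and 137 CPM and knockdown values of 137, 133 and 132 CPM. *Pola2* overlapped between groups, with 0.04 and -0.05. *Prim2*, the regulatory subunit of primase, gave -0.21 and -0.06, and *Pole*, the catalytic subunit of the leading-strand polymerase epsilon, gave 0.01 and -0.06.

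*Fen1*, the nuclease that trims Okazaki fragments, and *Lig1*, the ligase that joins them, both overlapped between groups. *Lig1* gave 289, 232 and 287 CPM in the control replicates, compared with 268, 289 and 267 CPM once both targets were knocked down, with a log2 fold change of 0.03 with all samples and -0.08 without Ctrl shRNA replicate 2. *Fen1* ranged from 19.3 to 22.1 CPM in the controls and from 14.5 to 20.4 CPM after knockdown, with -0.21 and -0.27. *Fen1* had the widest spread of the set among knockdown samples, with an SD of 16.9% of the mean. It shares 156 bases with *Tmem258* on the opposite strand, which had 577% of its count.

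Of the 4 nucleotide supply members, *Tk1* alone was separated between groups, 1 of 4 against 10.7% of all genes. *Tk1* encodes the S-phase thymidine kinase (ENSMUSG00000025574, chromosome 11, 117815526 to 117826092) and was at 201, 255 and 229 CPM without knockdown and 188, 185 and 183 CPM with it. The knockdown values were nearly equal, at 185 ± 2.93 CPM (SD, n = 3), below controls of 228 ± 27.1 CPM (SD, n = 3). Its log2 fold change was -0.30 (standard error 0.10, adjusted p = 0.339) with all samples and -0.22 (standard error 0.07, adjusted p = 0.162) without Ctrl shRNA replicate 2 (edgeR). *Rrm2*, the S-phase subunit of ribonucleotide reductase and the most abundant of these 4 per length, measured 186, 246 and 181 CPM across the controls and 169, 185 and 163 CPM across the knockdown samples. *Rrm2* overlapped between groups, with -0.24 and -0.10. *Rrm1*, the large reductase subunit, gave 0.06 and 0.01. *Tyms*, the thymidylate synthase, gave -0.51 and -0.03, and its value in Ctrl shRNA replicate 2 was 2.22 times that of the other controls.

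In the cyclin E and E2F group, *E2f1* and *Ccne2* were lower in every knockdown sample, 2 of 4 against 10.7% of all genes, and *Ccne1* and *E2f2* were not. E2f1 is a transcription factor that drives many replication genes, and cyclin E1 and E2 activate Cdk2 at the G1/S border. *E2f1* (ENSMUSG00000027490, chromosome 2, 154559407 to 154569892) had control values of 87.4, 82.9 and 91.8 CPM and knockdown values of 74.5, 78.9 and 79.5 CPM. Here Ctrl shRNA replicate 2 was the lowest control and still above every knockdown sample. The mean was 87.4 ± 4.42 CPM (SD, n = 3) against 77.6 ± 2.71 CPM (SD, n = 3), which gave a log2 fold change of -0.17 (adjusted p = 0.357) with all samples and -0.22 (adjusted p = 0.146) without that library (edgeR). *Ccne2* gave 47.6, 157 and 50.6 CPM in the control replicates, compared with 46.3, 41.7 and 42.4 CPM once both targets were knocked down, with -0.97 and -0.19. *Ccne2* was 3.19 times higher in Ctrl shRNA replicate 2 than in the other controls, and it shares 5622 bases with *Ints8* on the opposite strand, which had 103% of its count. *Ccne1*, the least abundant member, ranged from 6.83 to 9.31 CPM over all samples and gave 0.03 and 0.12. *E2f2* gave 0.02 and 0.01.

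Of the chromatin and histone supply genes, *Slbp* was lower in every knockdown sample, 1 of 4 against 10.7% of all genes. It encodes the protein that binds the stem-loop of replication-dependent histone mRNAs (ENSMUSG00000004642, chromosome 5, 33634952 to 33652574). *Slbp* was at 215, 447 and 234 CPM without knockdown and 194, 195 and 188 CPM with it. The knockdown values lay within a few CPM of each other, and the aberrant library was 1.99 times the other controls. The log2 fold change was -0.64 (standard error 0.28, adjusted p = 0.357) with all samples and -0.24 (standard error 0.07, adjusted p = 0.125) without that library (edgeR). *Uhrf1*, which carries DNA methylation to the new strand, measured 317, 241 and 304 CPM across the controls and 322, 303 and 316 CPM across the knockdown samples. Its groups overlapped, and the log2 fold change of 0.13 with all samples became 0.01 without Ctrl shRNA replicate 2. *Chaf1a* and *Chaf1b*, subunits of the factor that places histones behind the fork, gave 0.09 and -0.05 with all samples and -0.02 and -0.11 without it.

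Levels were compared between genes only per kilobase of the gene length in the deposited table, and the orders rest on that length. It is 11012 bases for *Rrm1* and 2771 for *Rrm2*, whose means after knockdown were 373 and 173 CPM, an order that reversed per kilobase. The length of the transcripts in these cells was not measured. *Pcna* was highest after knockdown at 146 ± 7.28 CPM per kilobase (SD, n = 3), followed by *Mcm7* at 114 ± 4.30, *Mcm4* at 109 ± 4.61 and *Mcm5* at 98.6 ± 1.88. The means of *Mcm7* and *Mcm4* lay slightly farther apart than either SD, and *Pcna* lay above both by more than the sum of the SDs. At the other end stood *Ccne1* at 3.15 ± 0.284 CPM per kilobase, *E2f2* at 7.24 ± 0.536, *Fen1* at 7.36 ± 1.24 and *Orc1* at 8.22 ± 0.490 (SD, n = 3 each). *Fen1* did not differ from *E2f2* or *Orc1* beyond its own spread, while the means of *E2f2* and *Orc1* lay farther apart than either SD. The whole range after knockdown was 46.2-fold, from *Ccne1* to *Pcna*. Within the MCM ring it was 1.89-fold, from *Mcm2* at 60.4 to *Mcm7*, within the clamp loader 2.44-fold, from *Rfc2* to *Rfc4*, and within GINS 5.54-fold, from *Gins1* to *Gins4*. In Ctrl shRNA replicates 1 and 3 the corresponding ranges were 1.92-fold, 2.57-fold and 5.19-fold, the last from *Gins3* to *Gins4*.

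**Figure D3:**
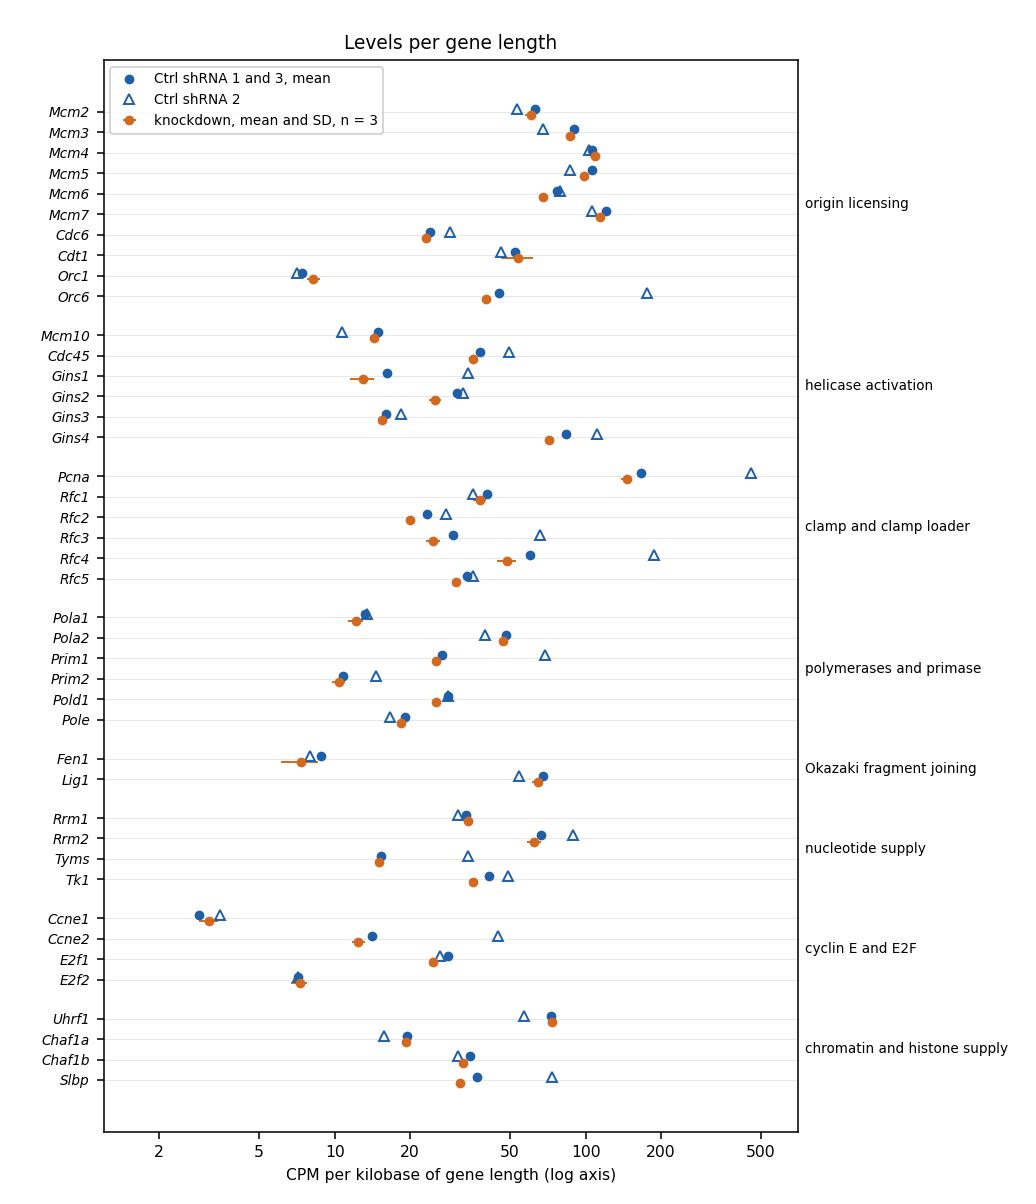
Levels of the replication genes in CPM per kilobase of gene length on a log axis, grouped by role. Orange points with bars are the mean and SD of the 3 knockdown samples, blue points the mean of Ctrl shRNA replicates 1 and 3, and open triangles Ctrl shRNA replicate 2. Levels run from about 3.15 (*Ccne1*) to 146 (*Pcna*) after knockdown, and the open triangles part from the other points for, among others, *Orc6*, *Pcna*, *Rfc3*, *Rfc4*, *Prim1*, *Tyms*, *Ccne2* and *Slbp*.

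Ctrl shRNA replicate 2 differed from the other controls at many members. The median SD of a member was 11.2% of its mean in the control group and 3.70% in the knockdown group. The absolute log2 difference between this library and the mean of the other controls had a median of 0.27 over the members, beside 0.09 between replicates 1 and 3. It was the highest of the 6 samples for 21 members and the lowest for 14, against 34.4% and 38.7% of all genes. It exceeded the other controls by more than 2-fold for 8 members, namely *Orc6*, *Ccne2*, *Rfc4*, *Pcna*, *Prim1*, *Rfc3*, *Tyms* and *Gins1*, a share of 19.0% against 12.4% of all genes. Of the 18 members whose groups did not overlap, this library was the highest sample for 15. Spearman's rho between the deviation and gene length was -0.36 over the 42 members and -0.24 over the 15307 genes tested, given as a description over genes that share 1 library. The 21 shorter members (1349 to 4097 bases) had a median deviation of 0.27, with 13 above the other controls, and the 21 longer ones (4259 to 11160 bases) of -0.01, with 9 above, a difference that was not tested. Without that library their median log2 fold changes after knockdown were -0.11 and -0.08, with 17 and 18 of 21 below 0. The part of that library's mitochondrial share and low number of detected genes in these values was not tested.

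**Figure D4:**
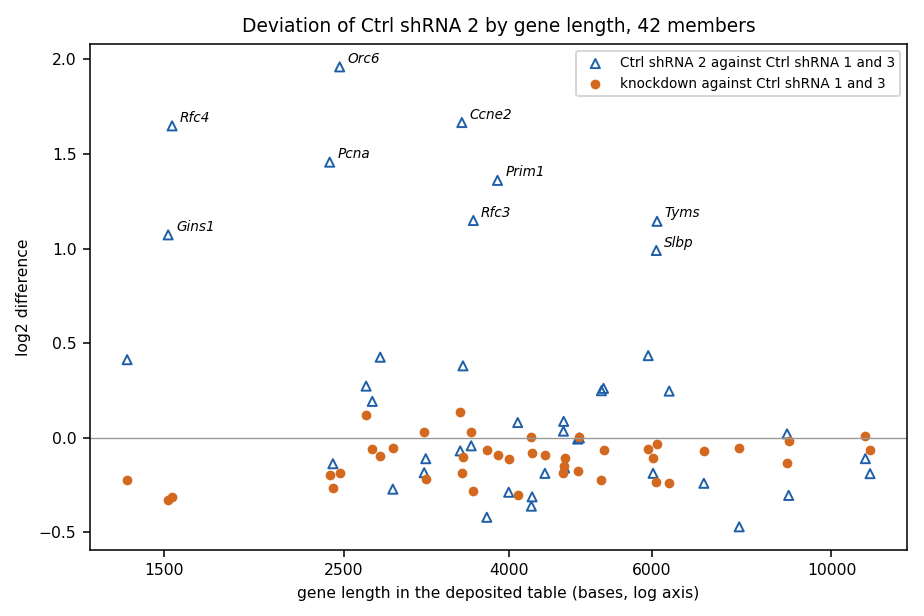
Log2 difference of each replication gene against gene length on a log axis. Open triangles compare Ctrl shRNA replicate 2 with the mean of Ctrl shRNA replicates 1 and 3, and filled points compare the knockdown samples with those 2 controls in edgeR under TMM scaling. The triangles reach 1.96 for *Orc6* and, among genes of 4259 bases or longer, are far above 0 for *Tyms* and *Slbp*, while the filled points stay between -0.33 and 0.14.

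The summed CPM of the 42 members was 7559, 9207 and 7622 in Ctrl shRNA replicates 1, 2 and 3 and 7190, 7149 and 6995 in the knockdown replicates, so that every knockdown sample lay below every control under TMM scaling. Per 1e+06 of the total count the sums were 8208, 6549 and 8024 in the controls and 7642, 7723 and 7493 after knockdown, and Ctrl shRNA replicate 2 was then the lowest sample. With TMM scaling the same order held for the 6 clamp and clamp loader genes, with 1120, 2175 and 1171 CPM against 1046, 975 and 1005 CPM. It also held for the 6 helicase activation genes, with 531, 638 and 575 CPM against 503, 491 and 494 CPM. Polymerase and primase genes summed to 772 to 908 CPM in the controls and 716 to 738 CPM after knockdown. Nucleotide supply genes had 847 to 1049 and 811 to 843 CPM, and cyclin E and E2F genes 181 to 284 and 163 to 168 CPM. Chromatin and histone supply genes had 868 to 972 and 822 to 835 CPM, again in that order. The Okazaki fragment genes overlapped, at 251 to 310 CPM in the controls and 285 to 304 CPM after knockdown. By the total count the order remained for the clamp genes and for the cyclin E and E2F genes (191 to 202 against 173 to 180). Ctrl shRNA replicate 2 was instead the lowest sample for the helicase activation genes, at 454 against 530 to 535 after knockdown. That library was also lowest for the polymerase and primase, the nucleotide supply, and the chromatin and histone supply genes. With TMM scaling the 10 licensing genes ranged from 2873 to 2930 CPM in the controls and from 2668 to 2834 CPM after knockdown, also in that order. Per 1e+06 of the total count they summed to 3181, 2084 and 3024 in the controls and 2986, 3062 and 2858 after knockdown, and the groups overlapped. These sums are weighted towards the abundant genes and carry no test.

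Other genes of the same pathways were taken from lists that do not contain the members. Of 42 other origin and fork genes, 0 passed in either direction in both edgeR comparisons, and 34 were below 0 without Ctrl shRNA replicate 2, with a median of -0.05, while with all samples 23 were below 0 and the median was also -0.05. Their groups did not overlap for 7 lower and 2 higher genes with all samples, against 10.7% and 14.7% of all genes, and for 12 and 3 without that library, against 17.3% and 20.3%. *Pold4*, a small subunit of polymerase delta, had control values of 27.0, 37.4 and 32.1 CPM and knockdown values of 22.6, 22.3 and 20.1 CPM. It was called lower by DESeq2 with all samples (adjusted p = 0.0464, Benjamini-Hochberg), with a range over the settings from 0.0101 to 0.675. *Rpa3*, the smallest subunit of the single-strand binding complex, was chosen after its values were seen and stood at 492 CPM in Ctrl shRNA replicate 2 against 37.0 to 106 CPM in the other 5 samples. Its log2 fold change was the lowest of the list, at -2.13 with all samples and -0.71 without that library (adjusted p = 0.347 and 0.176, edgeR). *Rnaseh2c*, also chosen after its values were seen, gave -0.70 and -0.64 and was separated as lower in both comparisons. It was called lower only with quality weights (adjusted p = 0.0122, limma voom).

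Among the 18 other nucleotide supply genes, 2 passed as higher in edgeR without Ctrl shRNA replicate 2 and 0 as lower, against 1.11% and 0.675% of all genes. Their median log2 fold change was 0.11 there, with 11 above 0 and 7 below, and 0.05 with all samples, with 9 of 18 below 0. Without overlap 7 were higher and 4 lower with all samples, against 14.7% and 10.7% of all genes, and 8 and 4 without that library, against 20.3% and 17.3%. *Cad*, the enzyme that starts pyrimidine synthesis, gave 114, 91.0 and 97.8 CPM in the control replicates, compared with 153, 163 and 152 CPM once both targets were knocked down. *Ctps*, which makes CTP, was at 177, 177 and 181 CPM without knockdown and 233, 234 and 224 CPM with it. Both rose in edgeR without that library, *Cad* by a log2 fold change of 0.55 (adjusted p = 0.0209) and *Ctps* by 0.36 (adjusted p = 0.0358), and neither passed with all samples (adjusted p = 0.174 and 0.179). Over the settings the adjusted p ran from 7.45e-07 to 0.675 for *Cad* and from 4.11e-05 to 0.675 for *Ctps*. *Samhd1*, which degrades deoxynucleotides, measured 193, 192 and 187 CPM across the controls and 236, 248 and 231 CPM across the knockdown samples, and was called higher by DESeq2 (adjusted p = 0.00913 with all samples, Benjamini-Hochberg, range 0.00100 to 0.675).

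Of 28 G1/S control genes, 2 rose in edgeR without Ctrl shRNA replicate 2 and 0 fell, against 1.11% and 0.675% of all genes, and the median was -0.00176. Groups did not overlap for 4 lower and 7 higher genes with all samples, against 10.7% and 14.7% of all genes, and for 6 and 9 without that library, against 17.3% and 20.3%. *Cdk6*, a cyclin D-dependent kinase, had control values of 36.7, 26.2 and 31.3 CPM and knockdown values of 51.0, 53.6 and 58.8 CPM, a log2 fold change of 0.67 (adjusted p = 0.0185, edgeR). *Myc*, a growth-promoting transcription factor, gave 66.4, 62.4 and 65.8 CPM in the control replicates, compared with 99.7, 117 and 93.5 CPM once both targets were knocked down, with 0.64 (adjusted p = 0.0211, edgeR). With all samples the adjusted p was 0.178 and 0.144, and over the settings it ran from 9.12e-07 to 0.675 for *Cdk6* and from 4.07e-07 to 0.637 for *Myc*. *Cdkn2a*, a locus of cell-cycle inhibitors, was at 384, 551 and 494 CPM without knockdown and 348, 248 and 290 CPM with it, and was called lower by DESeq2 with all samples (adjusted p = 0.0484, Benjamini-Hochberg, range 0.0195 to 0.675). DESeq2 without that library called 3 higher and 2 lower (*Cdkn2c* and *Cdkn2d*), against 4.22% and 2.84% of all genes. Quality weights called 6 higher and 4 lower (*Rb1*, *Cdkn2a*, *Cdkn2c* and *Cdkn2d*), against 8.67% and 6.34% of all genes. This list had 14 genes below 0 and 14 above it without that library, and 10 below 0 with all samples, where its median was 0.06.

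Of 15 fork checkpoint genes, 0 passed in edgeR with all samples, against 0.0588% higher and 0.00653% lower of all genes, or without Ctrl shRNA replicate 2, against 1.11% and 0.675%. Groups did not overlap for 3 lower and 3 higher with all samples, against 10.7% and 14.7% of all genes, and for 4 and 3 without that library, against 17.3% and 20.3%. Of these genes, 8 were below 0 without Ctrl shRNA replicate 2, with a median of -0.03, and 10 with all samples, with a median of -0.10. *Fanci*, a partner in crosslink repair, gave -0.30 (adjusted p = 0.0822, edgeR) without that library and was the lowest of the list there, its adjusted p running from 0.0110 to 0.841 over the settings with calls by DESeq2 without that library and by quality weights, and *Rad9a*, a subunit of a checkpoint clamp, gave 0.28 and was the highest. With all samples the extremes were *Chek1*, a checkpoint kinase, at -0.52 and *Rad9a* at 0.24. Of 24 mitosis and G2/M genes, 0 passed in either edgeR comparison, against 0.0588% higher and 0.00653% lower of all genes with all samples and 1.11% and 0.675% without Ctrl shRNA replicate 2. Groups did not overlap for 1 lower and 2 higher with all samples, against 10.7% and 14.7% of all genes, and for 2 and 5 without that library, against 17.3% and 20.3%. Their median log2 fold change was -0.01 without that library, with 13 below 0 and 11 above, and also -0.01 with all samples, with 12 below 0. *Mki67*, a marker of cycling cells, was the lowest at -0.28 (723, 623 and 694 CPM in the controls and 536, 549 and 681 CPM after knockdown), and *Ube2c*, of the mitotic ubiquitin pathway, was the highest at 0.19. With all samples the extremes were *Cdk1*, the mitotic kinase, at -0.91 and *Mybl2*, a transcription factor of G2/M genes, at 0.21. Replication genes and mitotic genes share all 6 samples, and the difference between the 2 medians was not tested.

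**Figure D5:**
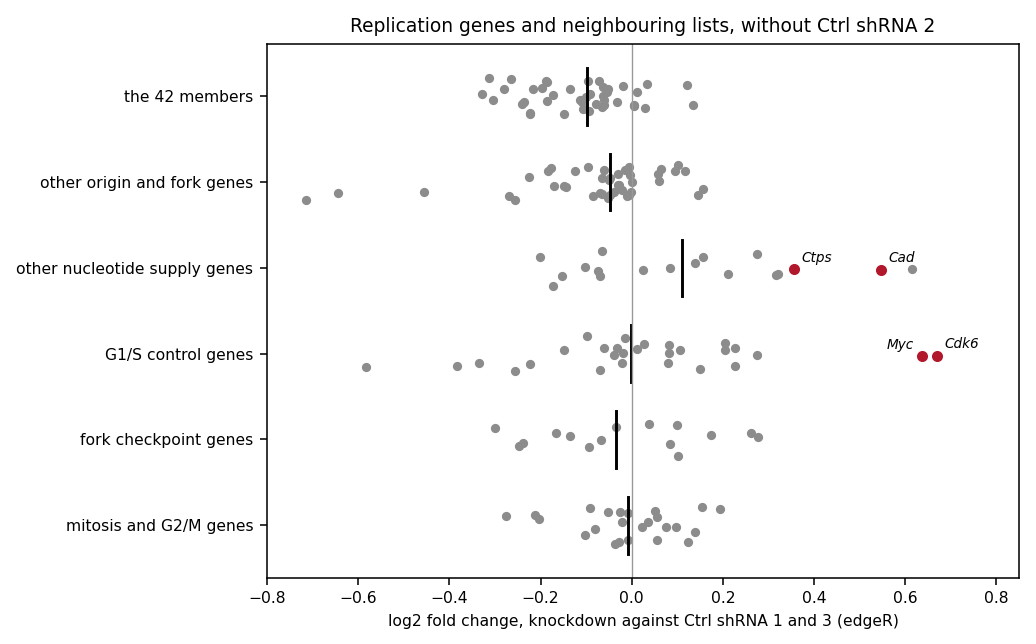
Log2 fold changes without Ctrl shRNA replicate 2 (edgeR, knockdown against Ctrl shRNA replicates 1 and 3) for the 42 replication genes and 5 neighbouring lists. Each point is a gene, black bars are list medians, and red points are genes past an adjusted p of 0.05. The members' median is -0.10, the other nucleotide supply genes' median is 0.11, and the red points are *Cad*, *Ctps*, *Cdk6* and *Myc*.

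Reads of overlapping genes limit some of these values. Of the 42 members, 22 overlap another annotated gene, and for 9 of them 1 or more partners had over 5% of the member's count. The library kit does not mark strand, so that reads from the shared bases cannot be assigned to either gene. Annotated pseudogene copies of *Mcm7*, *Pcna* and *Tyms* had 0 to 377 counts over all samples.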

How the data were processed

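Libraries of 6 MLE12 samples were compared, 3 per group, with groups taken from the labels. The authors deposited whole-number counts per gene without normalization, and FPKM values, which add a correction for gene length and library size. The submitters' processing notes name HISAT2 2.0.5, StringTie 1.3.3b, featureCounts 1.5.0-p3 and mm10. The library kit does not mark strand. The number of unused columns holding per-sample values was 0.

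Genes were kept by filterByExpr, and TMM-scaled counts were tested with the quasi-likelihood method of edgeR 4.0.16 (R 4.3.3) without covariates, at a Benjamini-Hochberg adjusted p under 0.05 over all genes tested. CPM are relative to TMM-scaled library sizes. Alternatives were DESeq2 1.42.0, limma 3.58.1 on counts or on log2(FPKM + 1) and log2(FPKM + 0.1), other scalings and filters, the replicate number as a block, and each library left out. Removal of a gene length trend was chosen after seeing the data. Scripts were tested on simulated data. Within groups the chi-square per degree of freedom between libraries ran from 5.67 to 454, so no library repeated another. Depth was 27273502 to 28535653 counts per sample. Tables and figures used Python 3.11.15, pandas 2.3.3 and matplotlib 3.10.9.

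All members may be named. Values in every sample are given for the members with the 3 largest and 3 smallest log2 fold changes, for those past the threshold with all samples, without Ctrl shRNA replicate 2 or with DESeq2, for those whose groups do not overlap, and for the most abundant per length of each role. From each other list, genes past the threshold in those fits are named, at most 4, or else the extremes. Some genes called only in other settings are named as well. Members and lists were chosen with earlier results of these data known.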

Additional observations from a re-analysis of the deposited data

How the results depend on the processing

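No member was called higher at an adjusted p under 0.05 under any of the 19 alternatives, and at the adjusted threshold members were called lower under DESeq2 without Ctrl shRNA replicate 2 (3, against 2.84% of all genes) and limma voom with quality weights (7, against 6.34%). At an unadjusted p under 0.05, 4 were lower with all samples (6.65% of all genes), and over the alternatives this count ran from 0 without knockdown replicate 2 to 15 without Ctrl shRNA replicate 2 (10.3%). Depth was similar in all libraries. Precision was limited by 3 samples per group and by the spread of the controls, of which Ctrl shRNA replicate 2 stood apart. Same-numbered samples correlated at -0.21, -0.16 and 0.02 in their deviations from the group means. Such deviations sum to 0 within a group, and in the controls Ctrl shRNA replicate 2 stood apart. The correlations therefore cannot show whether the numbers pair the samples. The fit with the replicate number as a block called 0 genes higher and 0 lower. The planned search for PCNA-binding motifs in proteins was not run.

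Over all genes, 9 were called higher and 1 lower. These counts were 1 and 0 with scaling by the total count only, 216 and 143 with DESeq2, 495 and 333 with DESeq2 without Ctrl shRNA replicate 2, 1327 and 971 with quality weights, and 1144 and 1018 at an unadjusted p under 0.05. Lower calls numbered 3 without a count filter, with protein-coding genes only, with limma on log2(FPKM + 1) or log2(FPKM + 0.1), and with the length trend removed. Leaving out each library gave 0 to 175 higher and 0 to 106 lower, with 175 and 106 without Ctrl shRNA replicate 2, 1 and 0 without Ctrl shRNA replicate 1, and 0 and 0 without any other. The members' median was 0.0267 (total count only), -0.0916 (DESeq2 without Ctrl shRNA replicate 2), -0.11 (quality weights) and from -0.18 to -0.10 with each library left out, against -0.15. Apart from the construction of each alternative, the cause of these changes was not tested.

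The sign of some members' log2 fold change reversed. DESeq2 without Ctrl shRNA replicate 2 gave -0.0642 for *Mcm2*, -0.0571 for *Mcm3*, -0.0478 for *Mcm10*, -0.0454 for *Pola2*, -0.0575 for *Pole*, -0.0715 for *Lig1* and -0.0118 for *Chaf1a*. Quality weights gave -0.00924 for *Mcm2*, -0.0166 for *Mcm3*, -0.0413 for *Mcm10*, -0.0216 for *Pola2*, -0.0297 for *Pole* and -0.0757 for *Lig1*. Removal of the length trend gave -0.0217 for *Mcm2* and -0.0465 for *Pole*. Scaling by the total count only gave 0.14 for *Mcm5*, 0.14 for *Mcm7*, 0.0509 for *Cdc6*, 0.0723 for *Gins3*, 0.12 for *Rfc1*, 0.0117 for *Rfc5*, 0.0418 for *Pola1*, 0.00326 for *Prim2*, 0.0112 for *Pold1* and 0.11 for *Chaf1b*. Median-of-ratios factors gave -0.00350 for *Pole*. The restriction to protein-coding genes gave -0.00433 for *Pole*. With each library left out, values ran from -0.0710 to 0.0848 for *Mcm2*, from -0.0639 to 0.17 for *Mcm3*, from -0.11 to 0.0281 for *Mcm5*, from -0.0923 to 0.0110 for *Mcm7*, from -0.0147 to 0.19 for *Cdt1*, from -0.0546 to 0.17 for *Mcm10*, from -0.11 to 0.0108 for *Rfc1*, from -0.0522 to 0.10 for *Pola2*, from -0.0643 to 0.0502 for *Pole*, from -0.0783 to 0.0868 for *Lig1*, from -0.10 to 0.12 for *Ccne1*, from -0.0469 to 0.0746 for *E2f2* and from -0.0185 to 0.18 for *Chaf1a*.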
